A study of Arabidopsis thaliana with 104 samples.

Results

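The genes described here are 41 root hair genes of Arabidopsis thaliana, chosen by locus identifier for their known part in epidermal cell fate and in hair growth, out of 27206 loci in the count table of the series. They comprise 5 regulators of epidermal fate, 8 basic helix-loop-helix (bHLH) factors, 4 genes of tip growth, 12 cell wall proteins, 9 wall enzymes and 3 peroxidases. The list was drawn up with earlier results of these data known, which limits every count of members set beside the share of all genes. RNA-seq libraries were made from whole seedlings of the wild type Col-0 and of the mutants phr1 and phr1 phl1, mutants of PHR1 and of both PHR1 and PHL1, the MYB factors that drive most transcriptional responses to phosphate starvation. All seedlings were germinated for 7 days on Johnson agar with 1 mM phosphate (Pi) and 0.5% sucrose. They then spent 12 days without sucrose on 50 µM (low) or 625 µM (high) Pi, either without bacteria or with a synthetic bacterial community (SynCom). The libraries come from 5 independent experiments, named A to E, with 2 libraries per group in each: 10 libraries for each of the 4 Col-0 and the 4 phr1 groups, and 6, from experiments C, D and E, for each of the 4 phr1 phl1 groups. Whole seedlings contain both root and shoot, so in these bulk libraries fewer root hair cells and less RNA per hair cell cannot be told apart.

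In the Arabidopsis root epidermis, cells that lie over the junction of the underlying cortical cells become hair cells and the others do not. In non-hair cells the MYB factor WER switches on GL2, which keeps the hair program off, while the small MYB proteins CPC, TRY and ETC1 move into neighbouring cells and block WER action there. Where GL2 is off, RHD6 and its close relative RSL1 start hair growth and act through further bHLH factors, among them RSL2 and RSL4, which set how long a hair grows. The hair then extends at its tip with reactive oxygen from the NADPH oxidase RHD2 and membrane traffic that needs COW1, and its new wall is built from extensins, proline-rich and arabinogalactan proteins and loosened by expansins and xyloglucan endotransglucosylase/hydrolases (XTH). Longer and denser root hairs are a known response of Arabidopsis roots to phosphate shortage.

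Promoters are shown for RHD6 and RSL4, the bHLH factors at the start and the end of the hair program, and for LRX1 and EXPA7, wall genes at its output that carry the published root hair element. Each is the 250 bases before the annotated start in RefSeq's TAIR10.1 assembly, on the forward strand of chromosome 1, with the element in capitals.
RHD6, chr1:24794964-24795213: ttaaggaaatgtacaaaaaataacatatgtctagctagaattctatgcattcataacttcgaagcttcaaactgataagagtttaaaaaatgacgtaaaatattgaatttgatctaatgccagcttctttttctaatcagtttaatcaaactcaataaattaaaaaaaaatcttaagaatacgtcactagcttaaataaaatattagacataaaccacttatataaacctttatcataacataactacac
RSL4, chr1:9654225-9654474: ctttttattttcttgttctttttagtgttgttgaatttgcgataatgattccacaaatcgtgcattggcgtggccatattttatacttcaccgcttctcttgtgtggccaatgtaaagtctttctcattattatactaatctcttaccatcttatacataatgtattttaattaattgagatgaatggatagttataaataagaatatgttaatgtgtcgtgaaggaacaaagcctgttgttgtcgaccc
LRX1, chr1:4069742-4069991: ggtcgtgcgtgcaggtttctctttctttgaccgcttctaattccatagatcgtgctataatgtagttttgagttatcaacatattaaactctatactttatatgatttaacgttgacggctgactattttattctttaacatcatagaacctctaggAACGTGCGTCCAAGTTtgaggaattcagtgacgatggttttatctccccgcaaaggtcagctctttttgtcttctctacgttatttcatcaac
EXPA7, chr1:4276255-4276504: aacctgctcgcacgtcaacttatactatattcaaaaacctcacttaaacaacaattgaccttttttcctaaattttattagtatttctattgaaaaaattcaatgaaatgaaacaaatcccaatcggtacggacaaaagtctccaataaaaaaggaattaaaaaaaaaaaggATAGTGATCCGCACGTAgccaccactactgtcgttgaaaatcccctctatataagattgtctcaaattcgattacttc
The root hair element was searched on both strands from 250 bases before to 50 after the start. It was found in 7 of the 41 members (17.1%) and in 234 of 26709 annotated genes (0.876%). The element was first defined on promoters of root hair genes, some of which are members here, so this share is no independent observation. The 7 are PERK13, LRX1, PRP1, PRP3, RHS13, EXPA7 and EXPA18, which are genes of the growing hair and its wall, and neither the fate genes nor the bHLH factors hold a match in this window. PRP1 and PRP3, proline-rich wall proteins, carry similar copies, atagtgttatgCACGat in PRP1 and taagtgtaatgCACGat in PRP3, written in the direction of the element with its CACG core in capitals. The PHR1 binding sequence P1BS (GNATATNC) had no match in the 41 windows, against 6.24% of annotated genes, and the L1 box (TAAATGTA), bound by GL2-type homeodomain proteins, had none, against 3.37%. A match is a string of letters and was not tested for binding in these samples.

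The members span a wide range of levels in whole seedlings, with many of low count. Per kilobase of exon and averaged over all libraries, the highest were AGP3, an arabinogalactan protein, at 23.2 CPM per kb (CPM, counts scaled to a library of 1000000), LRL1, a bHLH factor related to a lotus root hair gene, at 20.2, and the peroxidase AT4G26010 at 19.9. The fate and bHLH genes other than LRL1 were low on the same per-kb scale, from 4.48 for GL2 down to 0.0901 for RSL1. Members of other roles lay in that range too, among them AT4G08410 at 4.05, RHD2 at 3.64 and RHS8 at 0.823. In all, 37 members passed the filter on low counts and were tested with 18926 genes. The 4 that did not pass are TRY, RSL1, the RHD6-type bHLH gene AT2G14760 and the peroxidase AT1G05240. AT1G05240 had 21 counts in the whole series, and 58.9% of its 50-base windows occur more than once in the nuclear genome sequence.

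Total counts per library ran from 955174 to 9550846 with a median of 4335782. In 4 libraries the counts were under 1000000 or the gene-wise residuals were wide (Col-0 at low Pi with SynCom, D2; phr1 at high Pi without bacteria, D1; phr1 phl1 without bacteria, D1 at high and E2 at low Pi). PHR1 RNA was lower in both mutants than in Col-0, with means of 37.0 CPM in phr1 (n = 40) and 38.6 in phr1 phl1 (n = 24) against 68.0 ± 9.92 in Col-0 (SD, n = 40). PHL1 RNA was higher in phr1 phl1, from 42.0 to 972 CPM, than in Col-0 (mean 13.5 CPM), and a count over the whole gene does not show whether a functional transcript remains.

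The members' levels differed widely between the experiments. The summed level of the 28 members of tip growth and wall ranged over all groups from 155 to 2433 CPM in experiment A, from 375 to 2988 in B and from 274 to 1722 in E, but from 35.2 to 197 in C and from 27.8 to 232 in D. The 13 fate and bHLH members differed less, with medians over all groups of 108, 107, 45.1, 56.0 and 75.0 CPM in A to E. The summed level of 17 root markers had medians of 442, 483, 331, 370 and 395 CPM in the same order, so in C and D the hair wall genes were lower by a larger factor than the root markers. The experiment was a term of the fit, and values by experiment are given below.

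**Figure D1:**
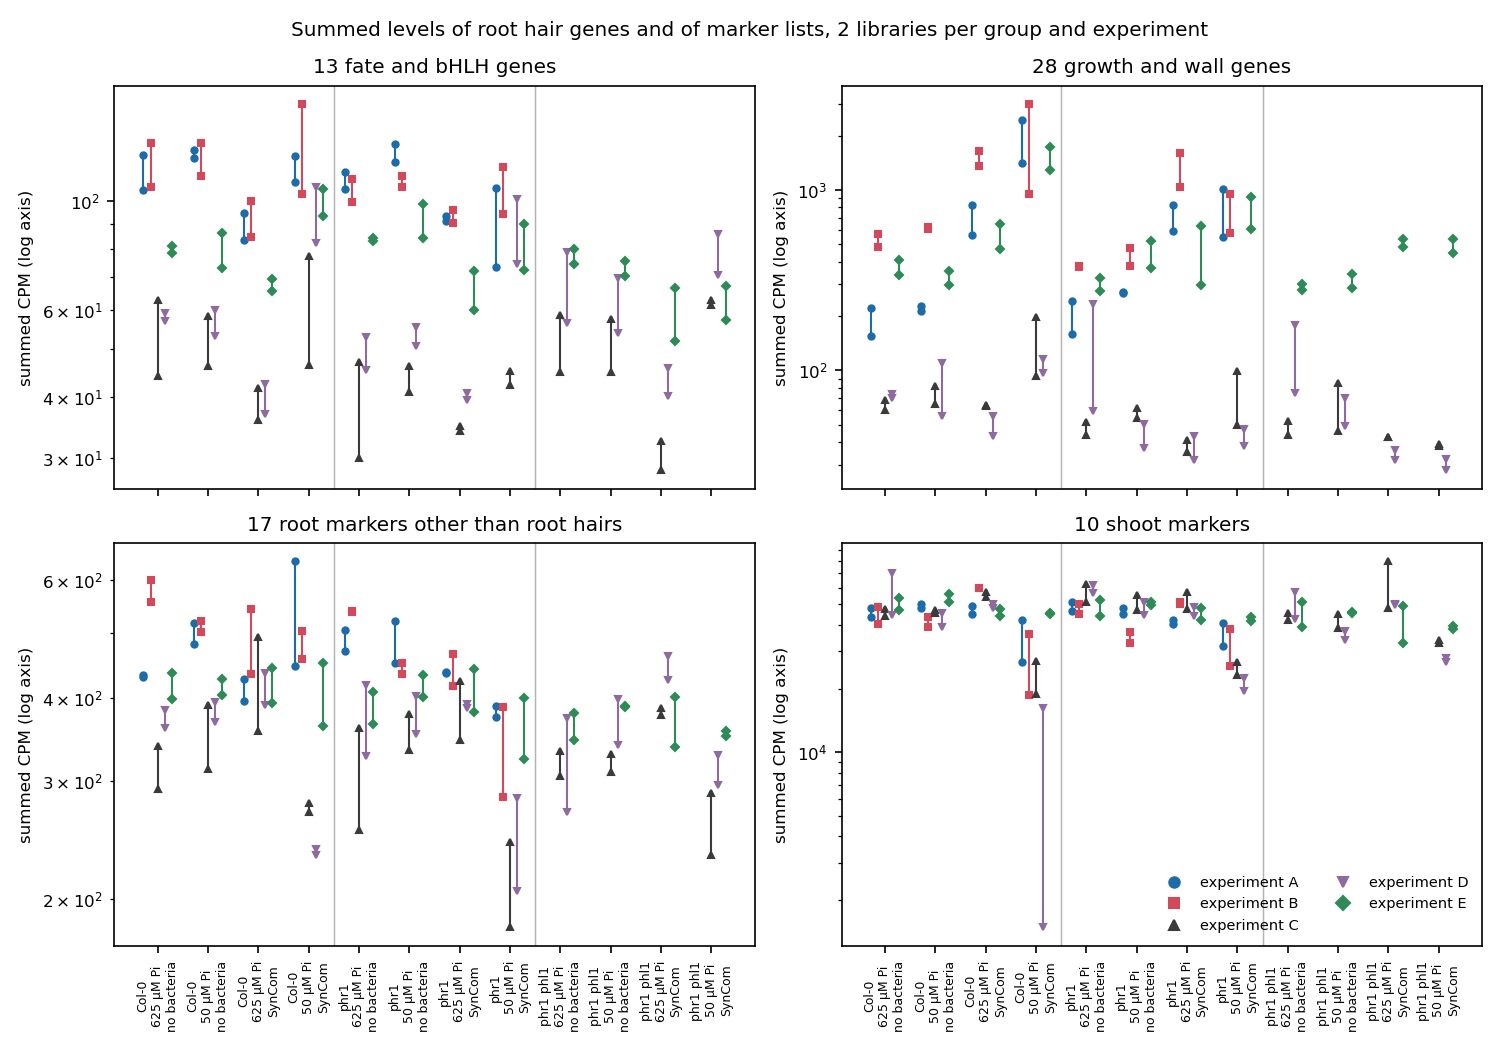
Summed CPM (log axis) in every library, by group and experiment, for the 13 fate and bHLH members, the 28 growth and wall members, 17 root markers and 10 shoot markers. Experiments C and D lie far below A, B and E in the growth and wall members, with the highest library of C at 197 and of D at 232 CPM.

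With the SynCom present, Col-0 seedlings had higher RNA of most root hair genes at low than at high Pi. Of the 37 tested members 30 rose and 1, GL2, fell (edgeR quasi-likelihood test, Benjamini-Hochberg adjusted p under 0.05 over all 18926 genes), where 49.4% of all genes were called, 27.2% higher and 22.2% lower. The median log2 change was 1.07 over the members and 0.05 over all genes. The ranges of the groups' libraries overlapped for every member.

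The fate genes moved in opposite directions. GL2, the repressor of hair growth, ranged over the 10 Col-0 libraries from 9.34 to 26.7 CPM with a median of 18.6 at high Pi and from 4.69 to 18.4 with a median of 10.6 at low Pi. Its low-Pi mean was below the high-Pi mean in 5 of 5 experiments, and the fitted level fell 1.52-fold (log2 change -0.61, SE 0.18, adjusted p = 0.00417), a call not made without experiment A, without B or in C, D and E alone (-0.25). ETC1, a mobile small MYB that blocks WER action, went from 0 to 1.02 CPM with a median of 0.305 at high Pi to 0.741 to 11.1 with a median of 4.73 at low Pi. The 2 low-Pi libraries of experiment E reached into its high-Pi range, the other 8 lay above it, and ETC1 rose by the widest margin of the members (11-fold, log2 change 3.46, SE 0.40, adjusted p = 7.11e-12). CPC, its relative, had medians of 2.06 and 2.93 CPM, and a log2 change of 0.68 (adjusted p = 0.0232). Its highest library, D2 at 10.6 CPM, is among the 4 libraries that stand apart, and without those libraries CPC was not called (log2 change 0.49). WER had medians of 3.03 and 3.68 CPM and did not pass the test (log2 change 0.50, adjusted p = 0.109). GL2 and ETC1 overlap annotated neighbours, as do the members EXT10, EXPA7, EXPA18, AT4G26010 and RHS19. Reads of such a neighbour cannot be separated where the genes overlap, because the libraries are not stranded.

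Of the bHLH factors, 5 of the 6 tested rose. RHD6, which starts the hair, had 0 to 3.06 CPM with a median of 1.08 at high Pi and 0.981 to 10.9 with a median of 4.65 at low Pi. Its fitted rise was 4.76-fold (log2 change 2.25, SE 0.35, adjusted p = 6.91e-08). RSL2, a hair growth factor downstream of RHD6, went from 0 to 8.49 CPM (median 3.45) to 0.391 to 30.8 (median 12.4), a 3.5-fold rise (log2 change 1.81, SE 0.29, adjusted p = 1.39e-07). The LRL factors rose less, with log2 changes of 1.09 for LRL2, 0.70 for LRL3 and 0.61 for LRL1. RSL4, which sets hair length, had medians of 2.08 and 3.41 CPM and did not pass the test (log2 change 0.33, SE 0.33, adjusted p = 0.423). RSL1, below the filter, had 67 counts in the series, and its mean was 0.738 CPM in the low-Pi SynCom libraries of Col-0 against 0.0369 at high Pi. In a fit without the filter RSL1 had a log2 change of 3.37 (SE 0.68, adjusted p = 3.66e-05).

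All 4 genes of tip growth rose. RHD2, the NADPH oxidase of the hair tip, had 0 to 23.3 CPM with a median of 13.5 at high Pi and 1.84 to 38.9 with a median of 24.7 at low Pi, and it was higher in 5 of 5 experiments (1.99-fold, adjusted p = 6.21e-05). COW1, a phosphatidylinositol transfer protein, went from a median of 7.58 to 17.5 CPM (2.19-fold, adjusted p = 0.000304). AT1G12950, a transporter of the MATE family, rose 3.15-fold and the receptor kinase PERK13 1.69-fold.

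Wall genes rose at low Pi by similar factors. EXT10, the extensin with the highest per-kb level of all members in the low-Pi SynCom libraries of Col-0 (69.2 CPM per kb), had 0.384 to 185 CPM with a median of 47.0 at high Pi and 2.30 to 496 with a median of 154 at low Pi. It was higher at low Pi in 5 of 5 experiments (3.05-fold, log2 change 1.61, SE 0.34, adjusted p = 5.75e-05). In all, 10 of the 12 cell wall proteins rose, with log2 changes up to 1.63 (EXT6), and the other two, EXT12 (0.73, adjusted p = 0.0539) and LRX2 (0.03), did not pass the test. Among the 9 wall enzymes 7 rose, including the expansins EXPA7 (log2 change 0.68) and EXPA18 (1.28) and XTH14, which went from a median of 27.1 to 66.8 CPM (1.23, adjusted p = 0.000105). XTH12 and the cellulose synthase-like CSLD3, which keeps the tip wall intact, were not called, CSLD3 with medians of 58.6 and 66.0 CPM. Both tested peroxidases rose, RHS19 from a median of 27.4 to 75.3 CPM (log2 change 1.54, adjusted p = 1.19e-05) and AT4G26010 from 43.1 to 76.5 CPM (0.88). The extensins AT4G08400 and AT4G08410 share 51.0% and 39.2% of their 50-base windows with each other, so the split of counts between them is uncertain. Of the windows of EXT6 40.0%, and of those of AT5G06630 32.1%, occur more than once in the genome. That share includes repeats within the gene itself, which were not separated from copies in other genes. EXT6 and AT5G06630 share no window with another member.

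**Figure D2:**
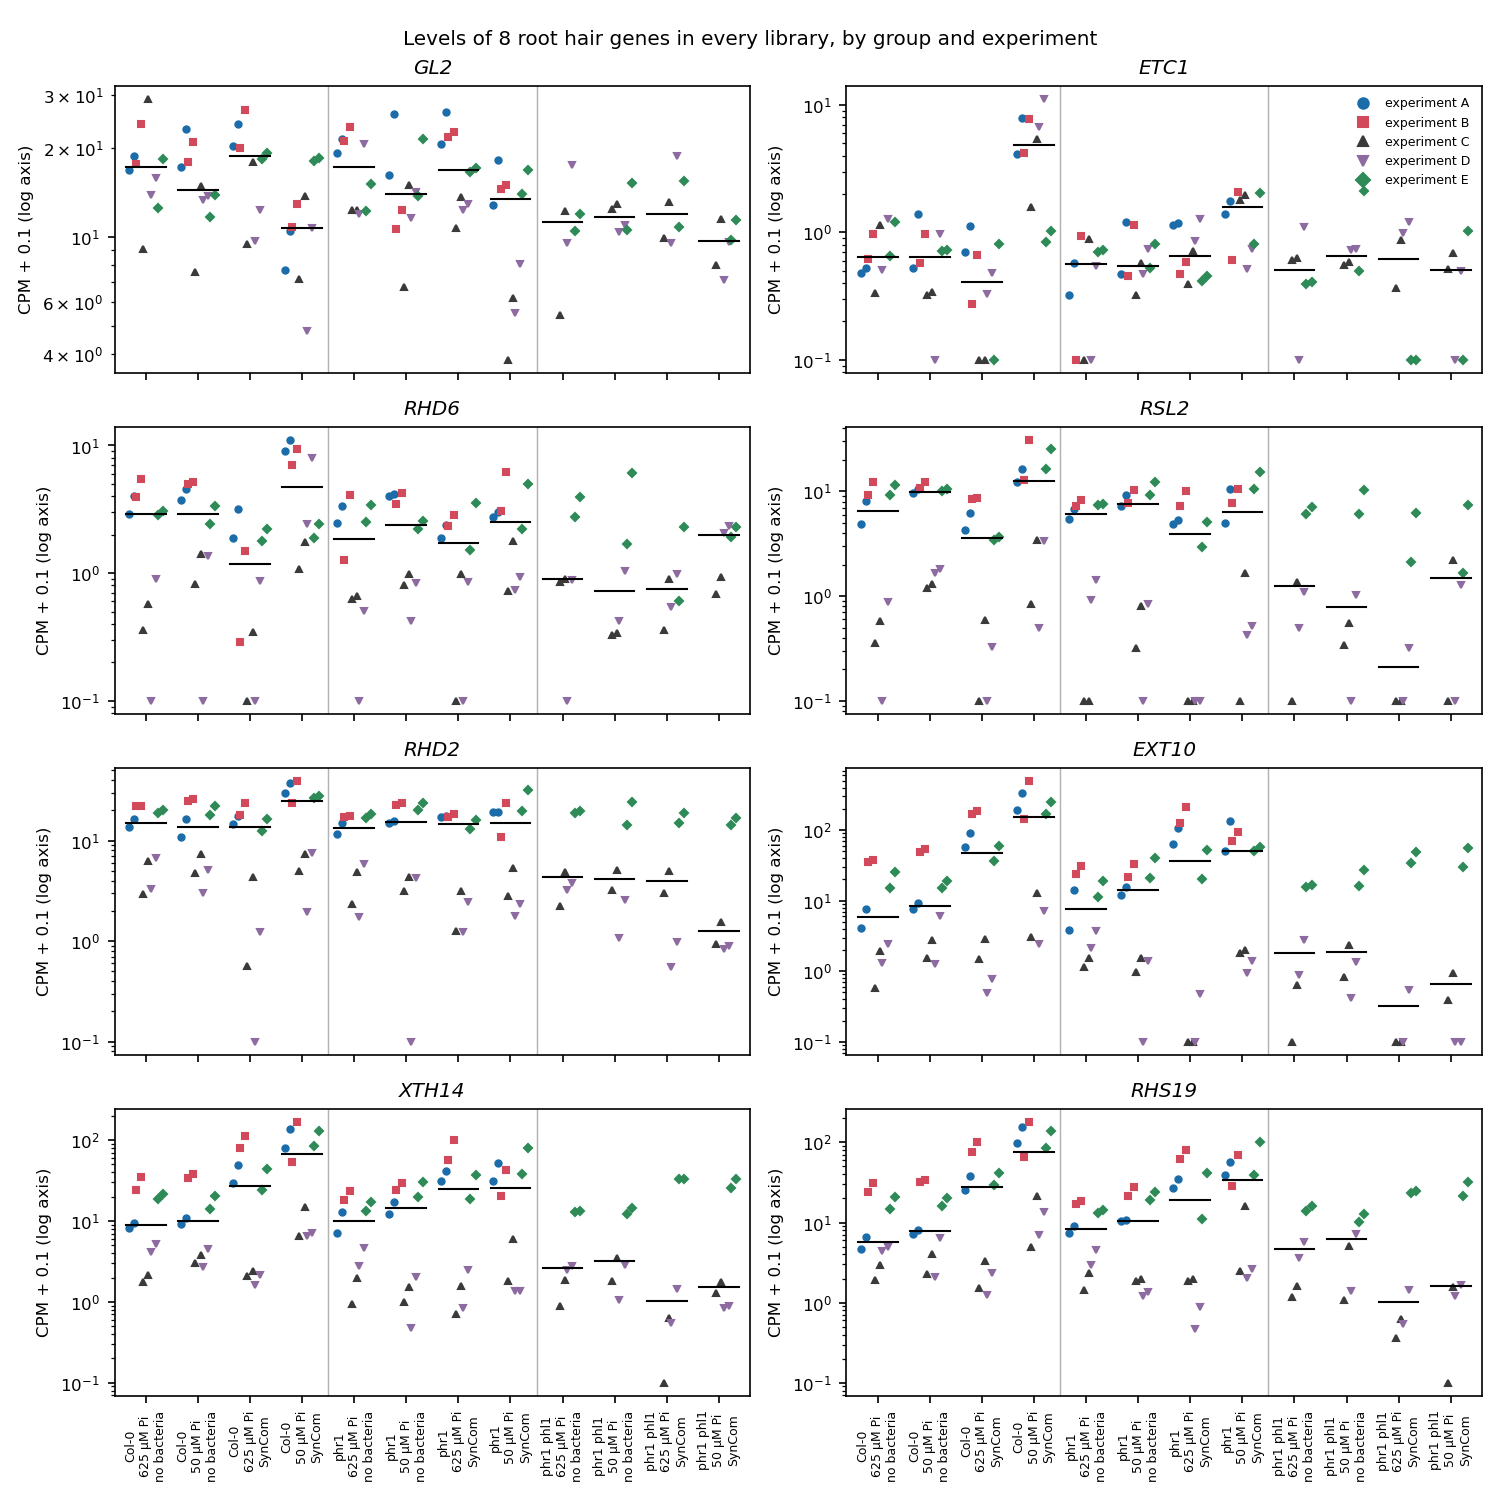
CPM plus 0.1 (log axis) of 8 members in every library, by group and experiment, with a bar at each group's median. In Col-0 with SynCom the median of ETC1 goes from 0.305 at high to 4.73 CPM at low Pi and that of GL2 from 18.6 to 10.6, and most EXT10, XTH14 and RHS19 values of experiments C and D lie below those of A, B and E.

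Markers of other cells moved in the same comparison. Of 17 root markers 14 were tested, and 8 rose and 2 fell between high and low Pi in Col-0 with SynCom (median log2 change 0.44), while 10 of 10 shoot markers fell (median -0.88). The summed shoot markers ranged from 44120 to 59835 CPM at high Pi and from 1485 to 45507 at low Pi, the lowest being library D2, and the summed root markers from 357 to 543 and from 232 to 639 CPM. No marker was at 0 in all libraries. The part of a shift between root and shoot RNA in the members' rise, or in the fall of GL2, was not tested. GL2, CPC, TRY and ETC1 also act in leaf hairs, and whole seedlings do not separate leaf from root RNA. The summed root markers had medians of 411 CPM at high and 543 at low Pi in A, and of 488 and 480 in B. In C the medians were 425 and 274, in D 412 and 235, and in E 417 and 407. The median log2 change of single root markers was 0.43, 0.26, 0.34, 0.59 and 0.58 in A to E. In C and D the sum and the typical root marker therefore moved in opposite directions. The summed growth and wall members were higher at low Pi in every experiment, at 145 against 63.7 CPM in C and 106 against 49.5 in D.

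Without bacteria, none of the 37 members was called between low and high Pi in Col-0. The count was also 0 at an unadjusted p under 0.05 in edgeR, and 0 adjusted calls were made by DESeq2 and by limma-voom. In this comparison 2 genes of the whole table were called, or 0.0106%. The median log2 change of the members was 0.18. ETC1 had medians of 0.536 and 0.546 CPM at high and low Pi, GL2 of 17.1 and 14.2, RHD6 of 2.79 and 2.78, RSL2 of 6.36 and 9.79, and EXT10 of 5.77 and 8.29. In phr1 and phr1 phl1 without bacteria no member and 0.0% of all genes were called by edgeR, with 4 and 1 members at an unadjusted p under 0.05, which 5.18% and 5.61% of all genes reached. DESeq2 and limma-voom called 0 members there.

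Adding the SynCom at low Pi raised the hair genes in Col-0. Of the 37, 31 rose and 0 fell (43.2% of all genes called, 23.8% higher and 19.4% lower), with a median log2 change of 1.83 against 0.05 over all genes. All 12 cell wall proteins rose with a median log2 change of 2.61, and 8 of 9 wall enzymes with a median of 2.26. EXT10 had 1.15 to 54.1 CPM with a median of 8.29 without bacteria and 2.30 to 496 with a median of 154 with the SynCom. It was higher with the SynCom in 5 of 5 experiments (9.73-fold, log2 change 3.28, SE 0.40, adjusted p = 9.24e-11). The largest changes were those of XTH26, a xyloglucan endotransglucosylase/hydrolase whose mean went from 0.372 to 8.90 CPM (log2 change 4.81, SE 0.49), and of PRP1, from 0.958 to 17.5 CPM (4.35, SE 0.37). Among the regulators ETC1 rose by a log2 change of 2.87, above both of these class medians. The other regulators that were called rose less, RSL4 by 1.03, RHD6 by 0.97, LRL2 by 0.97 and RSL2 by 0.75. WER, GL2, CPC, LRL1 and LRL3 were not called, nor was the wall enzyme CSLD3. The shoot markers moved here too, with 10 of 10 lower (median -0.75), whereas 0 root markers rose and 2 fell.

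The calls for the SynCom at high Pi in Col-0 were mostly of wall genes, with few of their regulators. Among the 37 members 17 rose and 1 fell, where 3.67% of all genes were called, 1.11% higher and 2.55% lower, and the median log2 change of the members was 0.83. The 17 were 11 of 12 cell wall proteins (median log2 change of the class 1.64), 5 of 9 wall enzymes (1.23) and the peroxidase RHS19. XTH26 went from 0.263 to 4.84 CPM in the mean (log2 change 4.16, SE 0.53, adjusted p = 5.56e-09) and PRP1 from 0.870 to 11.8 (3.74, SE 0.38, adjusted p = 1.41e-12). EXT10 had 0.471 to 37.8 CPM with a median of 5.77 without bacteria and 0.384 to 185 with a median of 47.0 with the SynCom (4.22-fold, adjusted p = 0.000114). In experiment D its means were 1.78 CPM without and 0.532 with the SynCom, and EXT10 was higher with the SynCom in 4 of 5 experiments. None of the 4 tested fate genes and 4 tip growth genes was called, with tip growth at a median log2 change of 0.05, and LRL1 was the only bHLH factor called, lower by a log2 change of -0.72 (SE 0.17, adjusted p = 0.00251), with medians of 31.7 CPM without and 23.9 with the SynCom. That call was not made with summed libraries (adjusted p = 0.0956) or in C, D and E alone (-0.60, adjusted p = 0.206). RHD6 and RSL2 had log2 changes of -1.05 (adjusted p = 0.0937) and -0.62 (0.307), and RSL4 of 0.83 (0.225). Of the 6 tested bHLH factors 4 had an unadjusted p under 0.05, which 13.7% of all genes reached. The class median was -0.42, with 1 of the 6 above 0. The marker lists showed 0 shoot markers called and 4 root markers lower, with a median log2 change of -0.39 for the root list.

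The response of Col-0 at high Pi differed between the experiments. The members' median log2 change was 1.66 in A, 1.1 in B and 0.34 in E, against 0.06 in C and -0.45 in D, over the 38, 37, 38, 18 and 17 members that had enough counts in A, B, E, C and D. From experiments C, D and E alone 2 members were called, without experiment A 10, with DESeq2 11 and with the 2 libraries of a group and experiment summed 11, in place of 18. The low-Pi response to the SynCom had positive medians in every experiment (2.74, 1.44, 0.99, 0.58 and 1.82 in A to E). The change between high and low Pi with SynCom did too (1.46, 0.30, 1.58, 1.48 and 1.21).

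**Figure D3:**
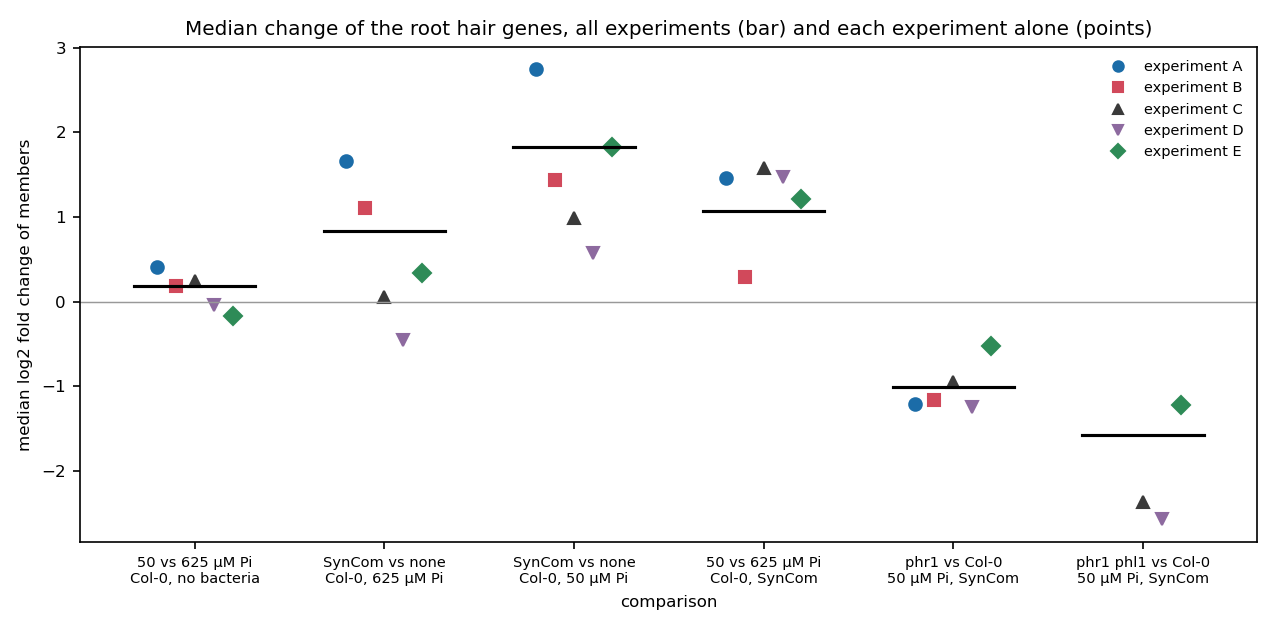
Median log2 change of the members that could be fitted within each experiment, for 6 comparisons and the experiments that hold them. The SynCom effect at high Pi has medians of 1.66 and 1.1 in A and B and of 0.06 and -0.45 in C and D, whereas the SynCom effect at low Pi and the Pi effect with SynCom are above 0 in all 5.

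The Pi effect was larger with the SynCom than without it for 9 members, by the interaction term in Col-0 (29.2% of all genes called, 15.4% with a positive and 13.7% with a negative term). They are ETC1 (interaction log2 3.59), RHD6 (2.02), AT1G12950 (1.81), RSL2 (1.37), RHS19 (1.32), LRL2 (1.08), XTH14 (1.07), COW1 (1.02) and RHD2 (0.91). By role the calls were 3 of the 4 tip growth genes, 3 of the 6 tested bHLH factors, 0 of 12 cell wall proteins and 1 of 9 wall enzymes. The class medians of the interaction term were of similar size, 0.97 for tip growth, 0.83 for the bHLH factors, 0.94 for the cell wall proteins and 0.71 for the wall enzymes, with 12 of 12 wall proteins above 0 and 6 of them at an unadjusted p under 0.05. The difference between the classes was not tested. EXT10 had a Pi effect of 1.61 with and 0.40 without the SynCom and was not called in the interaction. From experiments C, D and E alone 2 members were called and without experiment A 5. These values share their low- and high-Pi SynCom libraries with the comparisons above.

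In phr1 the hair genes still responded to the SynCom. At high Pi 20 of 37 members rose and 1, LRL1, fell (4.67% of all genes called, 2.38% higher and 2.28% lower; median log2 change of the members 1.06), led by XTH26 (log2 change 4.87), PRP1 (4.82) and XTH12 (3.65). At low Pi 23 rose and 0 fell (26.2% of all genes called, 14.4% higher and 11.7% lower; median 0.86), among them 10 of 12 cell wall proteins and 7 of 9 wall enzymes. EXT10 of phr1 had 0 to 40.2 CPM with a median of 13.9 without bacteria and 0.838 to 137 with a median of 50.2 with the SynCom at low Pi (3.13-fold, adjusted p = 0.000558). ETC1 rose 2.13-fold and RSL4 1.85-fold, while RHD6 and RSL2 were not called. By experiment the high-Pi medians of phr1 were 1.65 in A, 1.48 in B, -0.10 in C, -1.07 in D and 0.40 in E. From experiments C, D and E alone 2 members were called at high Pi and 7 at low Pi. Without experiment B the high-Pi count was 12 and without A the low-Pi count was 13, and with summed libraries they were 13 and 15. The fall of LRL1 (log2 change -0.56, adjusted p = 0.0271) was not called with summed libraries, in C, D and E alone, or without any 1 of A, B and C. Among the markers, 6 of 14 root markers were lower with the SynCom at low Pi (median -0.38) and 4 at high Pi (-0.50), and 6 of 10 shoot markers were lower at low Pi (median -0.54) and 0 at high Pi. Their part in the members' values was not tested.

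Fewer members changed with Pi in phr1 with SynCom. Between high and low Pi 3 members rose and 2 fell (23.8% of all genes called, 13.0% higher and 10.8% lower; member median 0.14). The 3 were AT1G12950 (log2 change 1.13), RSL2 (0.84) and LRL1 (0.72), and the 2 were LRX2 (-0.86) and GL2 (-0.60), a leucine-rich repeat extensin and the repressor. RSL2 and LRX2 were not called with summed libraries (adjusted p = 0.0525 and 0.107). EXT10 had medians of 35.9 CPM at high and 50.2 at low Pi in phr1. Shoot markers were lower at low Pi for 6 of 10 (median -0.60), while 1 of 14 root markers was lower and 0 higher. The difference between phr1 and Col-0 in the Pi effect was itself called for 3 members (2.67% of all genes called, 0.967% with a positive and 1.7% with a negative term), ETC1 (interaction log2 -2.44), EXT10 (-1.63) and LRL2 (-1.10). The count was 0 without any 1 of experiments A, B, C and D and 8 without E.

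In phr1 phl1 few members were called. The SynCom raised PRP1 (log2 change 2.44) and XTH26 (3.99) at low Pi (13.6% of all genes called, 8.06% higher and 5.58% lower). At high Pi it raised PRP1 (2.43), and CPC (-1.41) and LRL1 (-0.94) fell (2.25% of all genes called, 0.629% higher and 1.62% lower). With summed libraries none of these 3 was called. CPC was also not called without the 4 libraries that stand apart (-1.31, adjusted p = 0.0548) or without experiment C or D, nor LRL1 without C. At low Pi XTH26 was not called with summed libraries (adjusted p = 0.0623) or without experiment C, D or E. Low Pi with SynCom raised LRL1 (1.16) and CPC (1.1), and no other member passed (19.2% of all genes called, 10.4% higher and 8.87% lower). CPC was not called with summed libraries (adjusted p = 0.0891) or in C, D and E alone (0.054), and LRL1 not without experiment C. Shoot markers were lower at low Pi for 3 of 10 (median -0.56), and the SynCom lowered 3 of 14 root markers at either Pi (medians -0.63 at low and -0.71 at high Pi). LRL1 had 13.5 to 28.0 CPM with a median of 19.2 at high Pi with SynCom, 19.6 to 65.3 with a median of 43.0 at low Pi with SynCom, and 29.5 to 45.2 with a median of 35.4 at high Pi without bacteria. The ranges of LRL1 with and without the SynCom at high Pi do not overlap. The 6 libraries of each phr1 phl1 group include 4 of experiments C and D, where wall genes are low: without experiment E, PRP1 had log2 changes of -0.93 at low and -2.65 at high Pi and neither was called.

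At low Pi with SynCom, both mutants had less hair gene RNA than Col-0. In phr1, 28 of 37 members were lower and 0 higher (25.1% of all genes called, 11.7% higher and 13.4% lower), with a member median of -1.01. In phr1 phl1, 29 were lower and LRL1 was higher (36.0% of all genes called, 17.2% higher and 18.8% lower), with a median of -1.57. EXT10 had 2.30 to 496 CPM (median 154) in the 10 Col-0 libraries, 0.838 to 137 (median 50.2) in the 10 of phr1 and 0 to 56.5 (median 0.566) in the 6 of phr1 phl1, against 2.30 to 248 (median 9.83) in the 6 Col-0 libraries of experiments C, D and E and a median of 1.78 in those of phr1. The medians therefore fell from Col-0 to phr1 and were lowest in phr1 phl1 also within the shared experiments, while the ranges overlapped. The fitted levels of EXT10 were 3.35-fold lower in phr1 (log2 -1.74, SE 0.35, adjusted p = 0.0001) and 5.81-fold lower in phr1 phl1 (-2.54, SE 0.52, adjusted p = 6.29e-05).

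All 12 cell wall proteins were lower in each mutant, with class medians of -1.31 in phr1 and -1.85 in phr1 phl1. Of the 9 wall enzymes 6 were lower in each mutant, and both tested peroxidases were lower in each. RHS19 had 4.90 to 179 CPM (median 75.3) in Col-0, 1.92 to 102 (median 33.5) in phr1 and 0 to 32.4 (median 1.52) in phr1 phl1, with log2 differences of -1.08 and -2.51. These medians cover A to E in Col-0 and phr1 but only C, D and E in phr1 phl1, so they are not matched by experiment. Tip growth genes followed, 3 of 4 lower in phr1 and 4 of 4 in phr1 phl1. COW1 had medians of 17.5, 8.43 and 0.344 CPM in the same order (log2 -0.97 in phr1 and -2.42 in phr1 phl1), and its median in the Col-0 libraries of C, D and E was 4.11 CPM.

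Among the regulators ETC1 showed the widest difference. It had 0.741 to 11.1 CPM (median 4.73) in Col-0, 0.419 to 1.98 (median 1.48) in phr1 and 0 to 0.934 (median 0.407) in phr1 phl1, the last from C, D and E alone. Its log2 differences from Col-0 were -1.77 (SE 0.33, adjusted p = 2.68e-05) and -3.22 (SE 0.54, adjusted p = 1.78e-06). RSL2, LRL2 and LRL3 were lower in both mutants, RSL2 at log2 -1.01 and -1.83, while RHD6 was called in phr1 alone (-1.01; -0.91 in phr1 phl1, adjusted p = 0.0952). WER was called in phr1 phl1 (-0.89, adjusted p = 0.0459), but not without the 4 libraries that stand apart (-0.74). GL2, CPC and RSL4 were not called in either. LRL1 was higher in phr1 phl1 by 0.54 (adjusted p = 0.0209), a call not made with summed libraries (0.0952) or in C, D and E (0.29, adjusted p = 0.337), nor without any 1 of A, B, C and D. In experiment E alone Col-0 had a mean of 0.838 CPM of ETC1 at low Pi with SynCom, against 3.39 to 8.85 in the other 4 experiments, so the ETC1 difference from phr1 has the same sign in 3 of the 4 experiments that could be fitted.

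The direct comparison of the mutants called 1 member, COW1, lower in phr1 phl1 (log2 -1.45, adjusted p = 0.0438), where 2.63% of all genes were called. That call was not made with summed libraries (adjusted p = 0.181) or without experiment A, C or D. The mutants share the Col-0 libraries in the comparisons above, so their 2 sets of values are not independent. Within experiments the member medians of phr1 against Col-0 were -1.21, -1.16, -0.94, -1.24 and -0.52 in A to E, and those of phr1 phl1 were -2.36, -2.57 and -1.22 in C, D and E. With experiments C, D and E alone, 5 members were called in phr1 and 22 in phr1 phl1, without experiment A 17 were called in phr1, and a fit on the compared groups alone called 17 in phr1 phl1. Root markers moved in the same direction: 8 of 14 were lower in phr1 (median -0.62) and 7 in phr1 phl1 (-0.71), and the summed root markers ranged from 232 to 639 CPM in Col-0, from 181 to 399 in phr1 and from 233 to 356 in phr1 phl1. Shoot markers showed 1 and 2 higher and 0 lower. The part of these differences in root RNA in the members' values was not tested.

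In the other 3 conditions no member was called between a mutant and Col-0 by edgeR, DESeq2 or limma-voom. The percentages of all genes called were 0.0951 (phr1) and 0.106 (phr1 phl1) at high Pi with SynCom, 0.0581 and 0.0634 at low Pi without bacteria, and 0.0581 and 0.0793 at high Pi without bacteria. At an unadjusted p under 0.05 the members numbered 0 and 13, 0 and 0, and 2 and 4 in the same order, where 3.97% and 8.4%, 1.46% and 3.71%, and 3.72% and 13.4% of all genes reached that p. The response to the SynCom at low Pi differed from Col-0 for 2 members in phr1, EXT6 (-1.82) and LRL2 (-1.10), where 2.73% of all genes were called, and for 14 in phr1 phl1, where 15.5% were. The 14 are ETC1, LRL2, COW1, RHD2, LRX1, PRP3, AT5G06630, EXT10, EXT6, AGP3, RHS13, XTH14, AT4G26010 and RHS19, all with a smaller response in phr1 phl1. Neither call in phr1 was kept with summed libraries, in experiments C, D and E alone, or without any 1 of A, B, C and D. Of the 14 in phr1 phl1, ETC1 (adjusted p = 0.0236) and RHS19 (0.032) were called with summed libraries. In C, D and E, the experiments that hold phr1 phl1, RHS19 (-2.28), AT4G26010 (-1.70) and EXT6 (-2.54) were called and ETC1 had too few counts to be tested. The count was 4 without A, 3 without C and 4 without D. The Pi effect with SynCom differed from Col-0 in phr1 phl1 for ETC1 (-3.86), COW1 (-1.82), RHD2 (-1.40) and LRL2 (-1.07), where 16.3% of all genes were called, 7.81% with a positive and 8.48% with a negative term. With summed libraries COW1 was not called (adjusted p = 0.0813), and in C, D and E alone RHD2 (-1.71) was called, COW1 (adjusted p = 0.0536) and LRL2 (0.356) were not, and ETC1 could not be tested. The count was 1 without A, 1 without C and 1 without D.

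**Figure D4:**
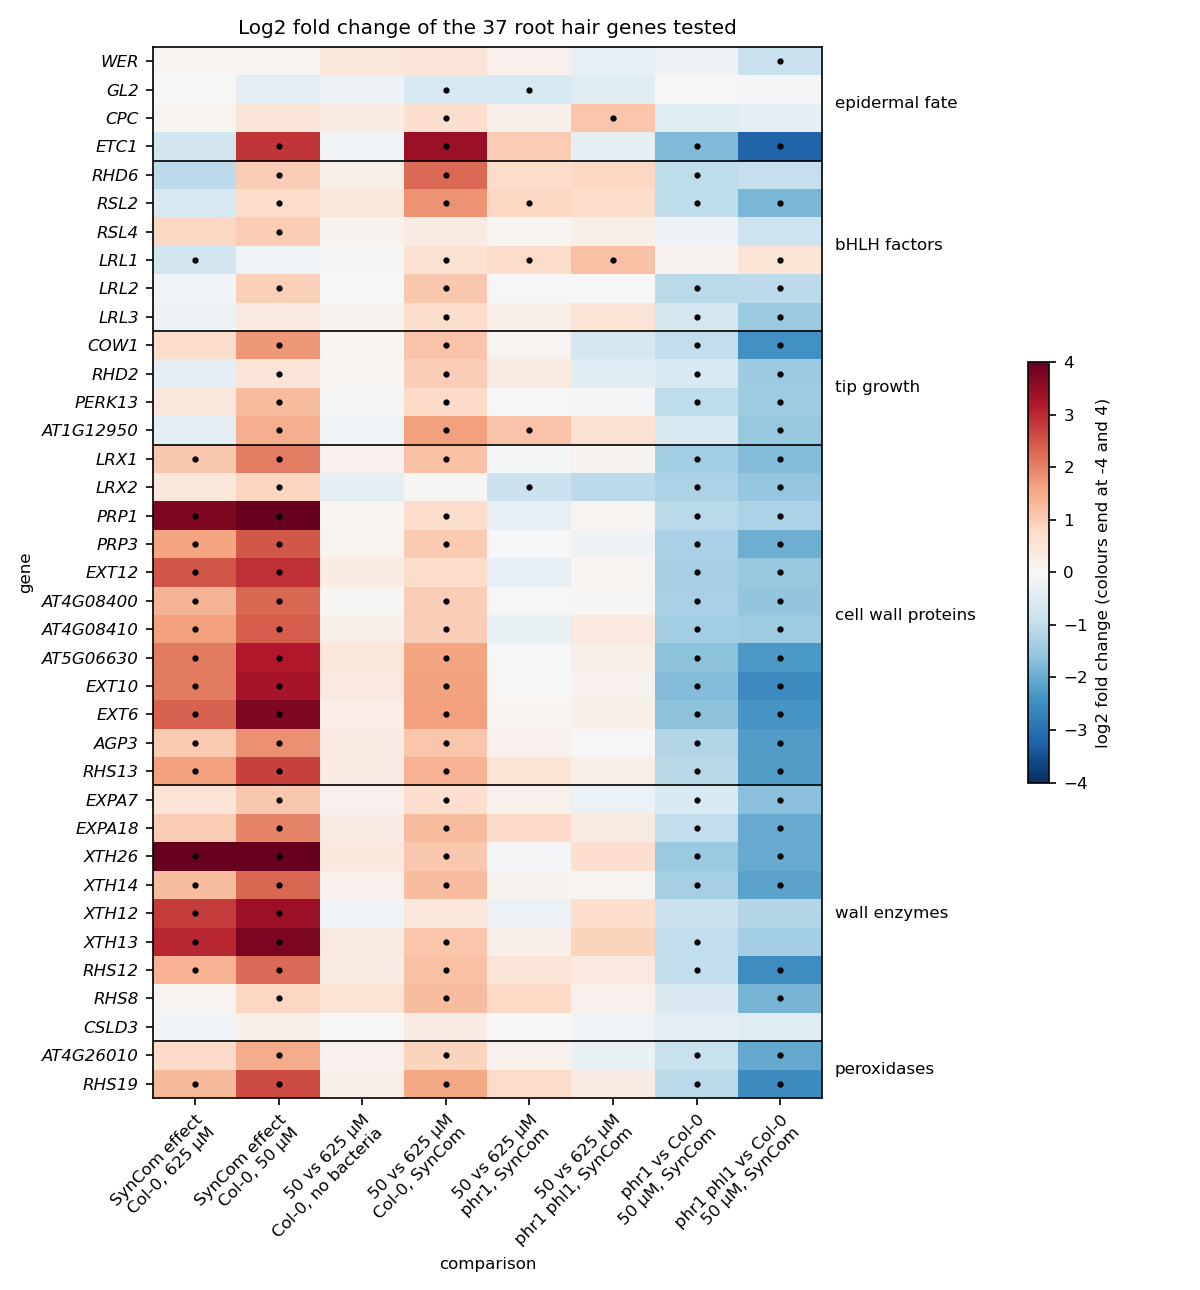
Fitted log2 changes of the 37 tested members (rows, by role) in 8 comparisons (columns), with colours that end at -4 and 4 and a dot where the adjusted p is under 0.05. The SynCom at low Pi in Col-0 has 31 dots, all for higher genes, the comparison of phr1 with Col-0 at low Pi with SynCom has 28, all for lower genes, and the Pi comparison of Col-0 without bacteria has none.

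Further genes of the same pathways were counted in the same way. Between high and low Pi in Col-0 with SynCom, where 49.4% of all genes were called, 5 of 9 further genes of epidermal patterning rose and 2 fell. They include CPL3, a small MYB of the CPC family (log2 change 4.11, adjusted p = 4.18e-11), MYC1, a bHLH partner of WER (1.37), and SCM, the receptor kinase that positions the cell files (0.81). Of 22 further genes of tip growth 10 rose and 5 fell, the most significant being TIP1 (-0.61), ACT2 (-0.53) and RHD4 (0.40). Of 12 genes of auxin, ethylene and growth repression 3 rose and 4 fell (58.3% called, near the share of all genes), with ZFP5, a zinc finger activator of hair growth, at 2.23, EIL1 at -0.39 and the growth repressor GTL1 at -0.44. None of the genes of these 3 lists was called for the SynCom at high Pi in Col-0, where 3.67% of all genes were called, 1.11% higher. At that share few calls would be met in lists of this size. The contrast with the 17 members that rose was not tested. In phr1 at low Pi with SynCom 2 patterning genes were higher and 5 lower, 1 and 7 of tip growth, and 0 and 4 of the hormone and repressor list, against Col-0, where 25.1% of all genes were called. These are 77.8%, 36.4% and 33.3% of the lists, the last again near the share of all genes. Of 4 trichome markers, leaf hair genes, 1 was tested and it was not called.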

How the data were processed

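Poly(A) RNA of whole seedlings was sequenced from non-stranded libraries, per the labels' protocols. The authors deposited whole-number read counts per locus, not normalized. The submitters' processing notes name TopHat2 2.1.1, HTSeq 0.6.1p1, cutadapt 1.3, CASAVA 1.8 and the build TAIR10. All columns were matched to samples by name, and 1788 of the 27206 loci had no count. Promoters and gene models were read by locus identifier from RefSeq's TAIR10.1 annotation.

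Counts were filtered with edgeR's filterByExpr over the 12 groups, scaled by TMM and tested with edgeR's quasi-likelihood test (edgeR 4.0.16, limma 3.58.1, DESeq2 1.42.0, R 4.3.3) with terms for group and experiment over all libraries. P-values were adjusted by Benjamini-Hochberg over 18926 genes, with calls at 0.05. CPM are counts scaled to a library of 1000000 with TMM. On simulated counts for the Pi comparison in Col-0 with SynCom, with 18926 genes, 85 of 100 genes changed by a log2 of 1 were recovered, 98 of 100 changed by 2, and 10 calls were false. The simulated libraries were independent and few genes were changed, whereas 49.4% of all genes were called in the data. The simulation therefore cannot show the effect of any dependence between the 2 libraries of a group and experiment. Low counts limit precision most in experiments C and D.

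The replicate labels join an experiment letter and a number. Library deviations from the mean of their group had a median r of 0.51 between libraries of 1 experiment in different groups and of -0.29 across experiments, while within an experiment the median r for libraries of the same number was 0.02, so the experiment pairs the samples and the number adds nothing. The labels call the replicates biological, but do not say whether the 2 libraries of a group and experiment come from separate plates, so p-values may measure in part the spread within an experiment. No 2 libraries of a group and experiment agreed within sampling noise (lowest chi-square per degree of freedom 1.92 over 52 pairs).

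The alternatives tried were a fit without the experiment term, a replicate block, libraries summed within an experiment, DESeq2, limma-voom, upper-quartile or RLE scaling, leaving the filter out or asking for 5 CPM in 6 libraries, each experiment left out, experiments C, D and E alone, the compared groups alone, and leaving out the 4 libraries that stand apart (under 1000000 counts or a residual SD over 0.65). The members and the lists of further genes and markers were chosen with earlier results of these data known. All members may be named, and of each further list the 3 genes with the smallest p for Pi in Col-0 with SynCom. Levels by library are given for the 2 most abundant members of each role and for WER, CPC, GL2, RHD6, RSL2, RSL4, RHD2 and EXPA7, and ETC1 was added after its values were seen.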

Additional observations from a re-analysis of the deposited data

Results flagged for a closer look

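In 10 of the 192 group values examined for 16 members, a single library lay far from the others of its group, a gap met in about 1 of 20 groups of independent normal values. In experiment E these were RSL2 in phr1 phl1 with SynCom, at 6.14 CPM (E1, high Pi) and 7.25 CPM (E1, low Pi), RHD6 in phr1 phl1 at 2.19 CPM (E1, high Pi with SynCom) and 6.03 CPM (E2, low Pi without bacteria), EXT6 in phr1 phl1 at 16.1 CPM (E2, low Pi without bacteria) and WER in phr1 at 8.05 CPM (E2, low Pi with SynCom). The others were WER in Col-0 at 0.247 CPM (C2, high Pi with SynCom), CPC in Col-0 at 10.6 CPM (D2, low Pi with SynCom), CSLD3 in phr1 at 145 CPM (D1, high Pi without bacteria) and COW1 in phr1 at 25.8 CPM (B1, high Pi with SynCom). The libraries Col-0 D2, phr1 D1 and phr1 phl1 E2 named here are among the 4 that stand apart over all genes. Each group pools experiments whose levels differ, so the rate of 1 in 20 need not hold here.

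Some effects differed between groups by an interaction term of the edgeR fit, given as log2. The Pi effect in Col-0 was larger with the SynCom for ETC1 (3.59), RHD6 (2.02), AT1G12950 (1.81), RSL2 (1.37), RHS19 (1.32), LRL2 (1.08), XTH14 (1.07), COW1 (1.02) and RHD2 (0.91). These are 24.3% of the tested members, where 29.2% of all genes were called for that term. The same term was called in phr1 for AT1G12950 (1.32, 5.52% of all genes called) and in phr1 phl1 for LRL1 (1.34, 4.19%), and neither call was made with summed libraries. The Pi effect with SynCom was smaller in phr1 than in Col-0 for ETC1 (-2.44), EXT10 (-1.63) and LRL2 (-1.10), and in phr1 phl1 for ETC1 (-3.86), COW1 (-1.82), RHD2 (-1.40) and LRL2 (-1.07). These are 8.11% of the tested members in phr1 and 10.8% in phr1 phl1, where 2.67% and 16.3% of all genes were called. The SynCom effect at low Pi was smaller in phr1 for EXT6 (-1.82) and LRL2 (-1.10) (2.73% of all genes called), neither of which was called with summed libraries or in C, D and E alone. In phr1 phl1, where 15.5% of all genes were called, it was smaller for the regulators ETC1 (-3.35) and LRL2 (-1.03) and the tip growth genes COW1 (-1.97) and RHD2 (-1.14). It was also smaller there for the wall proteins EXT6 (-3.03), EXT10 (-2.69), AT5G06630 (-2.47), AGP3 (-2.20), RHS13 (-2.04), LRX1 (-1.92) and PRP3 (-1.81), for XTH14 (-1.96), and for the peroxidases RHS19 (-2.64) and AT4G26010 (-2.02). Of these 14 terms in phr1 phl1, 2 were called with summed libraries (ETC1 and RHS19) and 3 in C, D and E alone (RHS19, AT4G26010 and EXT6), and of the tip growth genes 0 in either.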

How the results depend on the processing

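Without an experiment term the members called fell for the Pi effect with SynCom from 31 to 6 in Col-0, from 5 to 0 in phr1 and from 2 to 1 in phr1 phl1. For the SynCom at low Pi they went from 23 to 4 in phr1 and from 2 to 0 in phr1 phl1, at high Pi from 18 to 4 in Col-0, from 21 to 4 in phr1 and from 3 to 0 in phr1 phl1, for the Pi by SynCom interaction from 9 to 2, for phr1 against Col-0 from 28 to 2, and for the genotype by Pi interactions from 3 and 4 to 1 and 1. With summed libraries the counts were 3 (Pi, phr1), 1 (Pi, phr1 phl1), 15 and 1 (SynCom at low Pi, phr1 and phr1 phl1), 11, 13 and 0 (SynCom at high Pi, Col-0, phr1 and phr1 phl1) and 0 (genotype by Pi, phr1). From experiments C, D and E alone they were 1 (Pi, phr1 phl1), 7 (SynCom at low Pi, phr1), 2 and 2 (SynCom at high Pi, Col-0 and phr1), 2 (Pi by SynCom), 5 (phr1 against Col-0), and 0 and 2 (genotype by Pi). From the compared groups alone they were 1 (Pi, phr1 phl1), 15 and 1 (SynCom at low Pi, phr1 and phr1 phl1), 1 (SynCom at high Pi, phr1 phl1), 17 (phr1 phl1 against Col-0) and 0 (genotype by Pi, phr1). DESeq2 called 11 for the SynCom at high Pi in Col-0 and 1 at low Pi in phr1 phl1, and limma-voom 1 and 1 for the SynCom in phr1 phl1 and 8 for genotype by Pi in phr1. The filter of 5 CPM left 1 for Pi in phr1 phl1.

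Leaving out each experiment gave 21 to 31 members for Pi with SynCom in Col-0, 3 to 8 in phr1 and 0 to 2 in phr1 phl1. It gave 24 to 32, 13 to 24 and 0 to 2 for the SynCom at low Pi and 10 to 20, 12 to 23 and 1 to 3 at high Pi in the same order, 5 to 12 for Pi by SynCom, 17 to 27 for phr1 and 23 to 28 for phr1 phl1 against Col-0, and 0 to 8 and 1 to 5 for genotype by Pi. Of 210 called values of single members, 210 kept sign and call under RLE and 210 under upper-quartile scaling, 199 with limma-voom and 181 with DESeq2, the rest losing the call. Reversed values from C, D and E alone were LRX1 -0.12 (SynCom, phr1, low Pi), AT4G08400 -0.13 (SynCom, Col-0, high Pi), EXPA7 -0.022 and AT4G26010 -0.0800 (SynCom, phr1, high Pi) and XTH13 0.32 (phr1 against Col-0), and without experiment E PRP1 -0.93 and -2.65 (SynCom, phr1 phl1, low and high Pi, where leaving out experiments 1 at a time gave up to 2.92 and 2.69). The cause of these changes was not tested. The root hair element was found in 6 members before the start alone.

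With the replicate block of experiment and number, 206 of the 210 values kept their call and 1 member was called for Pi in phr1 phl1 in place of 2. Counts near 0 in experiments C and D limit every value that rests on them.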
